A study of Homo sapiens with 2 samples.

Results

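The dual-specificity phosphatases DUSP1, DUSP4, DUSP5, DUSP6 and DUSP10, the Sprouty proteins SPRY1, SPRY2 and SPRY4, and the Sprouty-related proteins SPRED1 and SPRED2 are feedback inhibitors of the mitogen-activated protein (MAP) kinase pathways. Their transcripts were compared between 2 cultures of PLC/PRF/5, an established human hepatocellular carcinoma line. Members were taken as every probe set whose only gene symbol in the array annotation was one of these 10 names, which gave 22 probe sets for 10 genes, out of 41091 probe sets with 1 symbol for 19775 genes. The first group was chemoresistant hepatospheres, tumour spheroids grown under a combination of cisplatin, which crosslinks DNA, and doxorubicin, which poisons topoisomerase II. The other was differentiated cells, made by giving spheroids fetal bovine serum and letting them attach. Each group was 1 Affymetrix array, so no difference here has an error or a test. Growth as spheroids or attached, serum and possibly drug exposure changed together and cannot be told apart, and the labels leave it unsaid whether the spheroids that were differentiated had seen the drugs.

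In MAP kinase signalling, a growth factor receptor switches on Ras, and Ras starts a chain of kinases that ends with ERK. The related kinases JNK and p38 respond mainly to stress. Active kinases induce genes that shut the pathway down again. The DUSP members strip the activating phosphates from ERK, JNK or p38, Sprouty proteins block the step between receptor and Ras or Raf, and SPRED proteins bring neurofibromin to the membrane to switch Ras off. Because the kinases induce many of these transcripts, their levels are widely used as a readout of pathway output, in liver tumours as elsewhere.

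With the deposited scaling the phosphatases were higher in hepatospheres, and the adaptors were divided. DUSP1, DUSP4, DUSP5 and SPRY1 were at least 2-fold higher, which makes 4 of 10 members against 12.5% of the 12766 genes measured, and 0 members were at least 2-fold lower against 8.83% of genes. These counts hold for the deposited scaling. With median centring 2 members were higher, against 9.09% of genes. With scaling to the poly(A) control RNAs, described with the scalings, 0 members were higher, against 3.2% of genes. Under it 3 members were lower, as were 5828 of the 12396 genes then measured. All 10 members were measured, meaning that their brightest probe set reached 84.1 signal units on at least 1 array. That floor is the higher of both arrays' median signals, and readings below it are treated as equal to it. The median log2 difference, hepatospheres minus differentiated cells, was 0.69 over the members and 0.05 over all measured genes, whose quartiles were -0.46 and 0.54. All 5 phosphatases lay above 0, where 52.7% of measured genes lay, with a median of 1.16. Under poly(A) control scaling DUSP6 and DUSP10 went below 0, to -0.27 and -0.44. Of the 5 adaptors 2 lay above 0, and their median was -0.16.

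**Figure D1:**
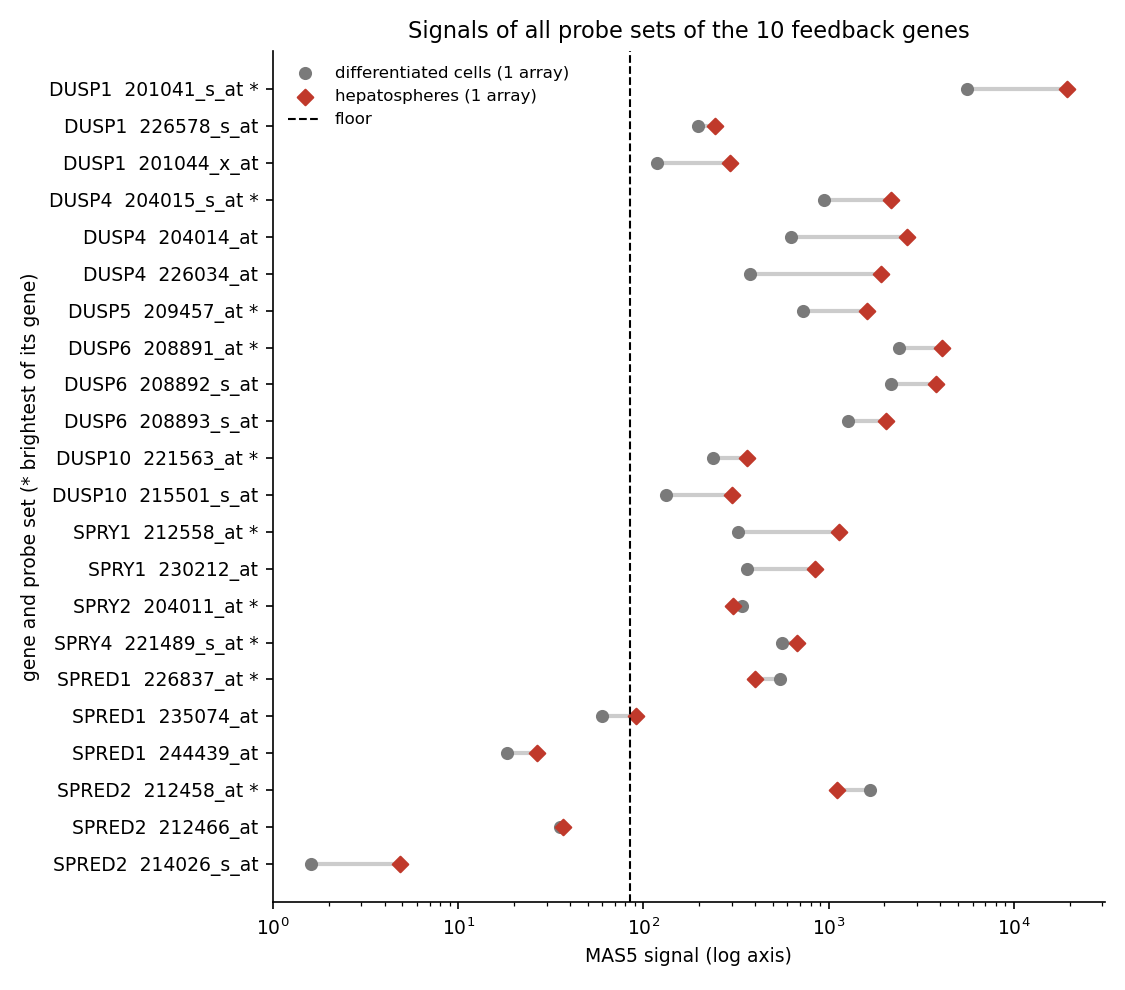
MAS5 signal (log axis) of each of the 22 member probe sets on the differentiated array (grey circles) and the hepatosphere array (red diamonds), with the floor of 84.1 as a dashed line and an asterisk at the brightest probe set of each gene. All 12 phosphatase probe sets, from only 5 genes, read higher in hepatospheres under the deposited scaling, against 51.2% of all measured probe sets. The brightest probe sets of SPRY2, SPRED1 and SPRED2 read lower.

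DUSP1 encodes a nuclear phosphatase that acts on p38, JNK and ERK and is induced within minutes by growth factors and stress. Its brightest probe set, 201041_s_at, gave a signal of 5579 for differentiated cells and 19371 for hepatospheres, a 3.47-fold excess in hepatospheres and a log2 difference of 1.80. Of all genes measured, 96.1% had a lower value. The other DUSP1 probe sets also read higher in hepatospheres. Probe set 201044_x_at went from 119 to 295, 2.49-fold higher, and 226578_s_at from 198 to 243, a log2 difference of only 0.30. The 3 DUSP1 probe sets therefore spanned 1.5 on the log2 scale, a wider span than in 88.6% of the 6230 genes with several measured probe sets, where the median span was 0.59. All 3 carry names that mark sequence shared with other transcripts (_s_at) or liable to cross-hybridise (_x_at), so no DUSP1 value comes from a probe set with a gene-specific name.

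The DUSP1 promoter is shown because DUSP1 was the phosphatase furthest apart on its brightest probe set and its promoter was the only matched member promoter holding a full cyclic AMP response element (CRE). RefSeq sequences running from 250 bases before to 50 bases after the gene start were matched for 8 of 10 members, all but DUSP4 and DUSP5. They were searched on both strands for the CRE (TGACGTCA) and its shorter core site (TGACG, which is contained in the full site). The AP-1 site (TGANTCA), 1 form of the ETS site (CCGGAA), the GC box (GGGCGG) and the CArG box bound by serum response factor were also searched for. The full CRE occurred in 1 of 8 member promoters and in 1.85% of all 35116 promoters of this length. In DUSP1 it starts 125 bases before the gene start. The window is chr5:172771146-172771445 of GRCh38.p14, minus strand, written 5′ to 3′ along the gene, with the CRE and every core site on either strand in capitals.
DUSP1: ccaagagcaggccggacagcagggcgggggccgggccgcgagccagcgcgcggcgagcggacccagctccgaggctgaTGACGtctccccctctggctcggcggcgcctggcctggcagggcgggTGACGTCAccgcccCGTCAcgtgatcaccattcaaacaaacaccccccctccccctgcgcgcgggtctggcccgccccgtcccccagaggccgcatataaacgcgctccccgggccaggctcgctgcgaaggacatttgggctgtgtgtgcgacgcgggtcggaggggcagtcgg

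DUSP4, an inducible nuclear phosphatase closely related to DUSP1, was higher on each of its 3 probe sets. The brightest, 204015_s_at, gave 950 for differentiated cells and 2168 for hepatospheres, 2.28-fold higher. The remaining probe sets, 204014_at and 226034_at, read 627 and 376 in differentiated cells and 2641 and 1920 in hepatospheres. These are 4.21-fold and 5.10-fold higher signals. The probe set used to represent DUSP4 thus gave the smallest of its differences (1.19 against 2.08 and 2.35 on the log2 scale), and neither of the larger readings came from a shared-sequence probe set.

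DUSP5 is a nuclear phosphatase specific for ERK and a direct product of ERK signalling. It was measured by 1 probe set, at 724 on the differentiated array and 1619 on the hepatosphere array, 2.24-fold higher. DUSP6, the cytoplasmic counterpart that is likewise specific for ERK, was within 2-fold. Its brightest probe set read 2410 and 4118, a 1.71-fold higher signal. The 3 DUSP6 probe sets lay close together, between 0.68 and 0.81 on the log2 scale, a narrower span than in most genes with several probe sets (11.2% had a narrower one). DUSP10, which prefers p38 and JNK, read 239 and 362 on its brightest probe set, 1.51-fold higher. Its second probe set read 132.8 and 299.6, which is 2.26-fold higher, so DUSP10 lay on either side of 2-fold depending on the probe set.

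SPRY1 was the Sprouty gene that stood apart. Sprouty proteins are membrane-anchored inhibitors that bind signalling adaptors such as GRB2 and the ubiquitin ligase CBL. The brightest SPRY1 probe set, 212558_at, gave 326 for differentiated cells and 1143 for hepatospheres, and the second, 230212_at, read 361 and 843. These are 3.51-fold and 2.34-fold higher signals from probe sets with gene-specific names. Of all genes measured, 96.2% had a lower value than the 1.81 of SPRY1. SPRY4 read 558 and 675 on its single probe set, 1.21-fold higher, with -0.77 on the log2 scale under poly(A) control scaling. SPRY2 went slightly the other way on its single probe set, from 340 to 303, a 1.12-fold lower signal and a log2 difference of -0.16. Without replicates, none of these differences, large or small, can be told from no difference by a test.

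The SPRY1 and SPRY2 promoters are shown because these genes are paralogues of which SPRY1 was at least 2-fold higher in hepatospheres and SPRY2 was within 2-fold. The CRE, its core site, the GC box, the AP-1 site, the CArG box and the ETS form CCGGAA were absent from the SPRY1 window. That window is chr4:123396545-123396844 of GRCh38.p14, plus strand. The SPRY2 window is chr13:80341077-80341376, minus strand. It held a CRE core site starting 190 bases before the gene start and CCGGAA starting 142 bases before it, both in capitals. It also held 2 GC boxes.
SPRY1: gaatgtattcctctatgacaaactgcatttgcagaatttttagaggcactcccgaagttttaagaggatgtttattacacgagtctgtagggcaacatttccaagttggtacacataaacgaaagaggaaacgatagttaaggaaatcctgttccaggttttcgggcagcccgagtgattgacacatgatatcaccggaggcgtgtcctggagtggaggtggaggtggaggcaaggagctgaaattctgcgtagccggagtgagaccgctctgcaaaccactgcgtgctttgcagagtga
SPRY2: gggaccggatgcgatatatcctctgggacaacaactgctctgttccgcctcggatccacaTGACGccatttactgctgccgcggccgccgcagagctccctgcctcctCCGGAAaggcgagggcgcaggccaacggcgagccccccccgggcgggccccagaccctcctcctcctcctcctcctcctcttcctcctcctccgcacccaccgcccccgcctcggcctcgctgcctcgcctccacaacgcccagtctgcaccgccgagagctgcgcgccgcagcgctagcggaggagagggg
Over the 8 member promoters, the CRE core site occurred in 4 (DUSP1, SPRY2, SPRY4 and SPRED2) and in 24.6% of all promoters. The GC box occurred in 6 members and 45% of promoters, the ETS form CCGGAA in 1 member and 17.2% of promoters. AP-1 and CArG sites occurred in 0 members, and in 7.71% and 1.29% of promoters. DUSP6, like SPRY1, held none of the 6 motifs in this window. Matches describe the letters in these windows only.

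SPRED1 and SPRED2 read lower in hepatospheres on their brightest probe sets. SPRED2 went from 1663 to 1111, a 1.5-fold lower signal, and SPRED1 from 548 to 399, a 1.37-fold lower signal. Both were within 2-fold, and 20.4% and 25.3% of measured genes had a more negative difference than SPRED2 and SPRED1. The second SPRED1 probe set disagreed in direction. It read 59.6, below the floor, in differentiated cells and 91.0 in hepatospheres. The third SPRED1 probe set and the other SPRED2 probe sets were below the floor on both arrays, so 3 of the 22 member probe sets carried no usable difference. Of the 19 that did, 16 read higher in hepatospheres (51.2% of all measured probe sets did) and 3 lower, and 9 were at least 2-fold higher, against 11.6% of all measured probe sets. Probe sets of 1 gene share its RNA and are not replicates.

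**Figure D2:**
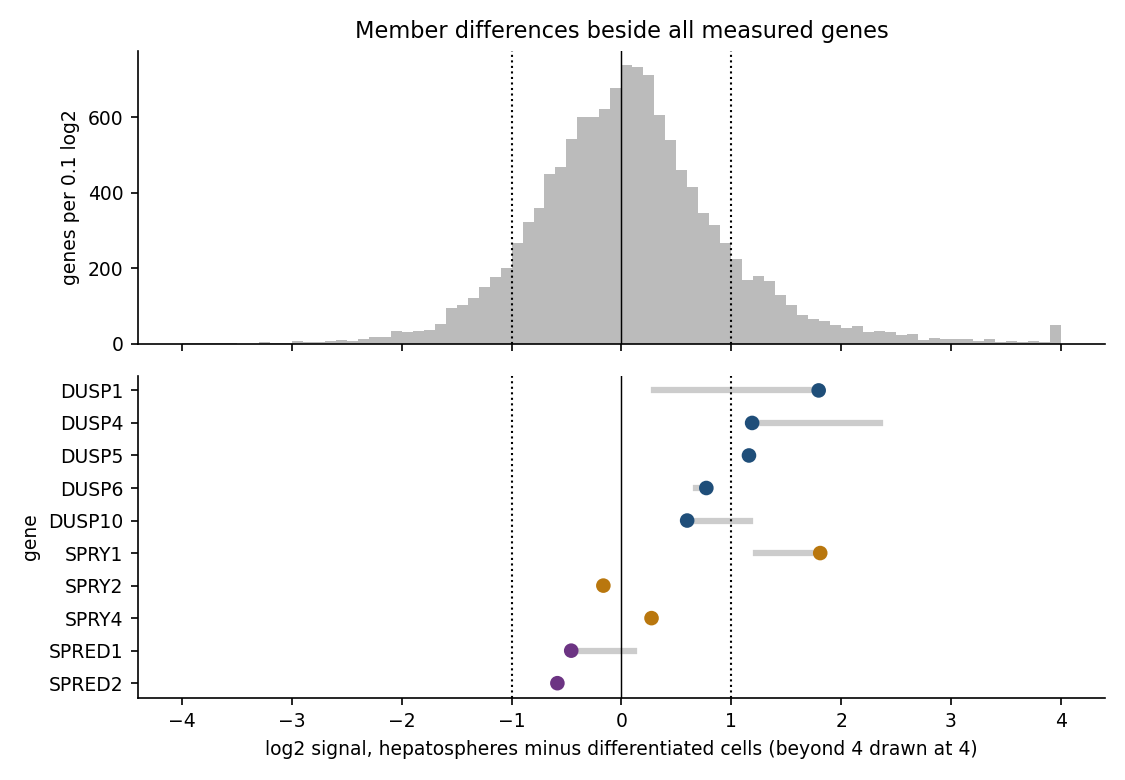
Upper panel: number of measured genes in each 0.1-wide bin of log2 difference (hepatospheres minus differentiated cells), for 12766 genes. Lower panel: each member's difference on its brightest probe set (points; blue DUSP, orange SPRY, purple SPRED) with the range over its measured probe sets (grey bars), and dotted lines at a 2-fold difference. DUSP1, DUSP4, DUSP5 and SPRY1 lie beyond 2-fold under the deposited scaling, and the DUSP1 bar reaches down to 0.30.

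How far the members stood from 0 depended on how the arrays were scaled. With each array centred on its own median signal, DUSP4 and DUSP5 were at 0.94 and 0.91 on the log2 scale and left the 2-fold set, so 2 members (DUSP1 and SPRY1) remained at least 2-fold higher, against 9.09% of genes. The 12 poly(A) control probe sets, which report bacterial RNAs added to each sample, read 2.06-fold higher on the hepatosphere array. Scaled to them, 0 members were at least 2-fold higher, against 3.2% of genes. SPRY2, SPRED1 and SPRED2 were at least 2-fold lower (-1.20, -1.5 and -1.62), as were 5828 of the 12396 genes then measured. The members' median still lay 0.58 above that of all genes. DUSP1, DUSP4, DUSP5 and SPRY1 stayed above 0 under that scaling, at 0.76, 0.15, 0.12 and 0.77. It put the median of all genes at -0.94 instead of 0.05, and the higher genes made up 6.38% instead of 58.7% of those 2-fold apart (38.3% with median centring). Both scalings move every gene that is above the floor on both arrays by 1 constant. All members are such genes on their brightest probe sets, so the order of their differences is the same under these scalings by construction. Directions given for the members are thus relative to the bulk of genes on these arrays. The ACTB 3' to 5' signal ratio, a sign of RNA or labelling quality, was 1.48 in differentiated cells and 2.64 in hepatospheres, and the GAPDH ratio 0.99 and 1.04. The part of these array differences in the member results was not tested. In either culture, fewer cells expressing a gene and less of its RNA per cell cannot be told apart.

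**Figure D3:**
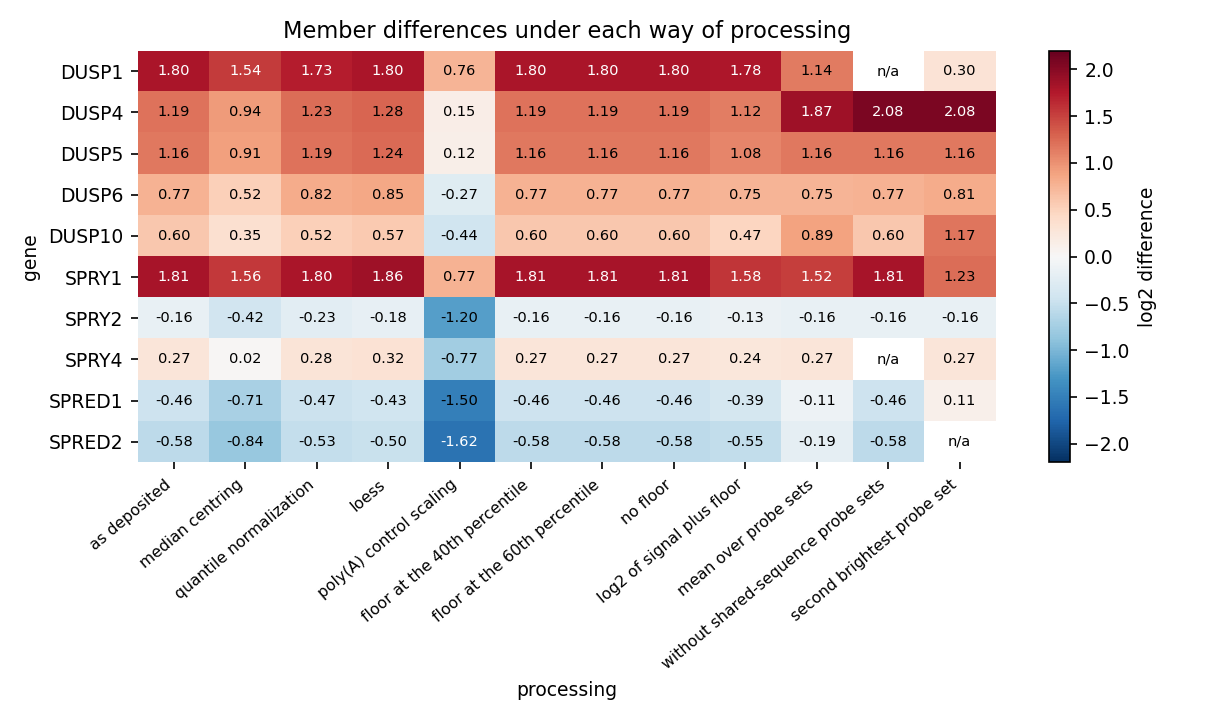
Log2 difference of each member (rows; colour and printed value) with the deposited scaling and under 11 alternatives (columns); n/a marks a gene with no probe set left or none at the floor. DUSP4, DUSP5 and SPRY1 are positive in all columns, and DUSP1 in the 10 alternatives that gave it a value. DUSP6, DUSP10 and SPRY4 turn negative under poly(A) control scaling, and SPRED1 turns positive on its second brightest probe set.

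The surrounding pathway genes were taken from 7 lists of 77 genes, of which 68 were analysed here and 63 measured. Of these, 8 were at least 2-fold higher (12.7%) and 6 at least 2-fold lower (9.52%), shares near those of all genes, and their median was 0.09. The phosphatases related to the members were mostly within 2-fold or lower. Among the other MAP kinase phosphatases, 0 of 4 measured were 2-fold higher and 1 was lower, with a median of -0.36. DUSP9, a cytoplasmic phosphatase that prefers ERK, gave 1604 for differentiated cells against 394 for hepatospheres, 4.07-fold lower. DUSP7, closely related to DUSP6, was at -0.46, DUSP16 at -0.26 and DUSP8 at 0.21. The DUSP8 and DUSP16 values depended on the probe set, with others of the same genes reaching 1.05. DUSP2 was below the floor on both arrays. Atypical dual-specificity phosphatases, which lack the MAP kinase docking domain, had 0 of 10 higher and 1 lower (median -0.17). DUSP12 was 2.21-fold lower, at 2086 and 943, but had no value with shared-sequence probe sets left out. DUSP23, DUSP14 and DUSP11 stood at -0.74, -0.67 and 0.48.

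Sprouty and SPRED relatives and partners had 1 of 5 measured genes higher and 0 lower (median 0.20). SPRED3 read 207 and 418, 2.02-fold higher, and lost the 2-fold mark with median centring, quantile normalization, loess, poly(A) control scaling and log2 of signal plus floor. NF1, which encodes the neurofibromin that SPRED proteins recruit, read 15.0, below the floor, in differentiated cells and 147 in hepatospheres, at least 1.74-fold higher, and was below the floor on both arrays when the 60th percentile served as floor. The kinase TESK1 and the adaptor GRB2 stood at 0.20 and 0.11. SPRY3 was below the floor on both arrays. Other receptor and Ras feedback genes had 1 of 8 higher and 1 lower (median -0.08). IL17RD, an inhibitor of fibroblast growth factor signalling also called SEF, read 214 and 492, 2.30-fold higher, but stood at 0.60 on the log2 scale with the mean over probe sets and below 2-fold also with median centring, poly(A) control scaling and log2 of signal plus floor. LRIG3, a member of a family of transmembrane regulators of receptor kinases, read 252 and 66.8, at least 3.0-fold lower, with a bound of -0.73 (log2) when the 60th percentile of signal served as floor. ERRFI1, an inhibitor of the epidermal growth factor receptor, was at 0.88 and RASAL2, a Ras GTPase-activating protein, at -0.53.

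The kinase cascades themselves had few genes 2-fold apart. From Ras to ERK, 1 of 13 measured genes was higher and 1 lower (median 0.09). The Ras protein gene HRAS gave 3757 for differentiated cells against 652 for hepatospheres, 5.77-fold lower on its single probe set. The Ras exchange factor SOS1 was 2.08-fold higher on its brightest probe set and at -0.37 on its second brightest. The phosphatase gene PTPN11 (SHP2) stood at -0.67 (-1.10 on its second brightest probe set, past 2-fold) and the ERK-activated kinase gene RPS6KA1 at 0.45. In the JNK and p38 cascades 0 of 11 measured genes were higher and 1 lower (median -0.33). MAPKAPK3, a kinase activated by p38, was 2.58-fold lower (1769 and 686), and stood at -0.71 on its second brightest probe set. MAPK11, which encodes a p38 isoform, stood at 0.98, and the upstream kinases MAP2K6 and MAP3K5 at -0.88 and -0.86, or at -1.14 and -1.11 with median centring.

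Transcripts known to be induced by ERK, other than the members, went both ways. Of 12 measured, 5 were at least 2-fold higher and 1 lower (median 0.43), against 12.5% and 8.83% of all measured genes. FOS, a component of the AP-1 transcription factor, read 66.3, below the floor, and 337, at least 4.0-fold higher. That bound was 1.14 on the log2 scale, instead of 2.0, when the 60th percentile of signal served as floor. PHLDA1 read 3138 and 11620, 3.70-fold higher, with all 6 of its probe sets higher. IER3, an early response gene linked to cell survival, read 6287 and 21975, 3.50-fold higher. EGR1, an immediate early transcription factor, read 471 and 1440, 3.06-fold higher on its brightest and higher on all 3 of its probe sets. With shared-sequence probe sets left out, neither EGR1 nor IER3 had a value. Under poly(A) control scaling EGR1, IER3 and PHLDA1 were below 2-fold (0.57, 0.76 and 0.85 on the log2 scale), and of all the listed pathway genes only FOS, at 1.21, stayed 2-fold higher. ETV1 and CCND1 were named after their values were seen, ETV1 as the fifth of the higher genes (2.45-fold) and CCND1, cyclin D1, as the lower gene (2.24-fold). The ETS factors ETV4 and ETV5, also named after their values were seen, stood at -0.18 and -0.94, apart from ETV1 at 1.29.

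**Figure D4:**
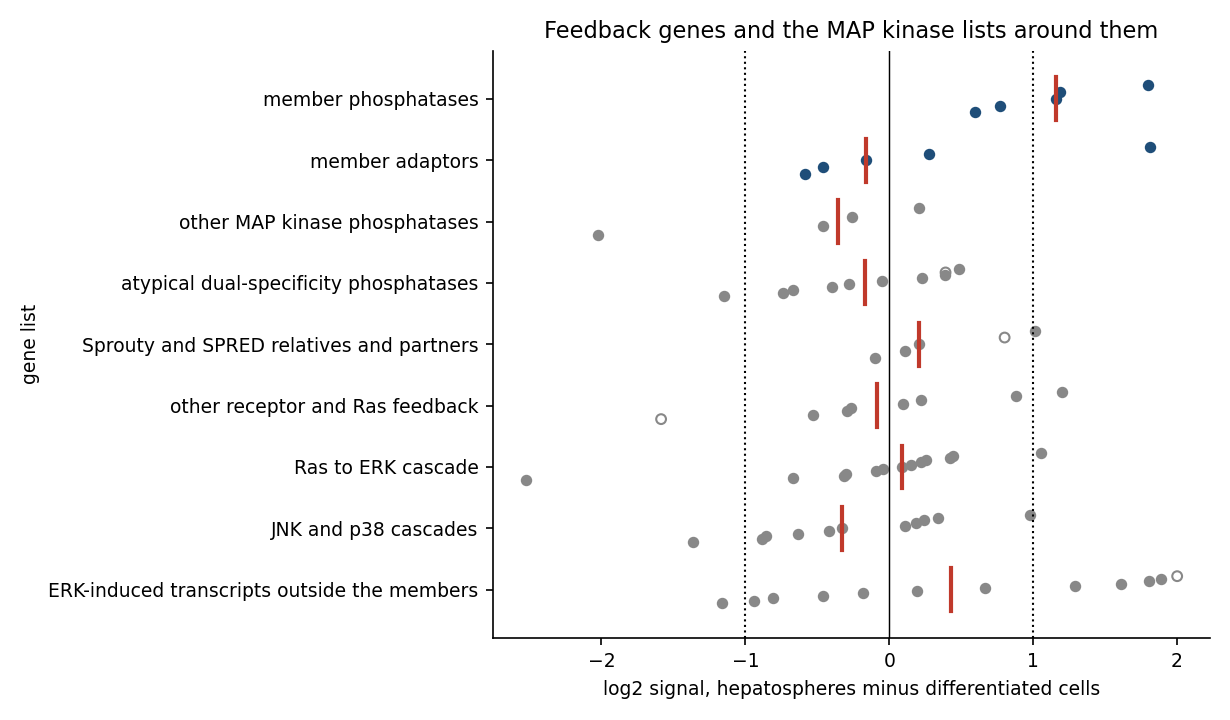
Log2 difference (hepatospheres minus differentiated cells) of each measured gene in the phosphatase and adaptor members (blue) and in the 7 surrounding lists (grey; open circles are bounds from a reading below the floor), with the list median as a red bar and dotted lines at 2-fold. Under the deposited scaling the member phosphatases all lie above 0 with a median of 1.16, and the other MAP kinase phosphatases have a median of -0.36.

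Markers of liver cells were present on both arrays. All 9 analysed here were measured, and 2 were at least 2-fold higher in hepatospheres, TTR (5.62-fold) and ALB (2.71-fold, 10276 and 27887). Another 2 were at least 2-fold lower, AFP (5.66-fold) and KRT8 (2.16-fold), and the other 5 were within 2-fold. The 3 blood cell markers analysed were below the floor on both arrays, as were the endothelial markers CDH5 and VWF, while PECAM1 read 3388 and 3787. Of 4 fibroblast markers, COL1A1 (290 and 471) and DCN (76.2 and 139) reached the floor on at least 1 array. COL1A2 and PDGFRB did not, and the summed signal of all 4 was 383 in differentiated cells and 712 in hepatospheres. The part of these markers in the member results was not tested.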

How the data were processed

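Total RNA of 2 PLC/PRF/5 cultures was extracted with Trizol, labelled with biotin and hybridised to 1 array per group, and groups were taken from the source names. The deposited values are intensity values, MAS5 signals on a linear scale, as named in the submitters' processing notes; neither its version nor its scaling target is given in the sources used here. The 2 arrays limit the precision of every value. Of 54675 probe sets, 62 were controls, 41091 had 1 symbol in GEO's array annotation, 1801 had several and 11721 were unnamed here; 41037 matched a gene of the RefSeq table (GRCh38.p14).

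Each gene was represented by its probe set of highest mean log2 signal. Signals under the floor, the higher of the arrays' 50th percentiles, were set to it, so such folds are bounds. A gene at least 2-fold apart was counted. All members were named, and from each surrounding list up to 4 genes with the largest differences. Members, lists and thresholds were chosen with earlier results of these data known. The procedure was tested on simulated data with a chosen noise level and shifts only in genes well above the floor. That gives no error for the values of these arrays. Tables were handled with pandas 2.3.3 and numpy 2.4.6 under Python 3.11.15, loess came from statsmodels 0.14.6, and plots from matplotlib 3.10.9.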

Additional observations from a re-analysis of the deposited data

How the results depend on the processing

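The 11 alternatives were median centring, quantile normalization, loess (span 0.3), scaling to the poly(A) controls, a floor at the 40th or the 60th percentile, unfloored signals, the floor added to each signal before log2, averaging a gene's probe sets, leaving out shared-sequence probe sets, and the second brightest probe set. With median centring 2 members were at least 2-fold higher and their median was 0.43, 1902 of all genes were at least 2-fold lower, and 5 listed pathway genes were higher and 10 lower. With poly(A) control scaling 0 members were higher and 3 lower, and their median was -0.35. Of the 12396 genes then measured, 397 were higher and 5828 lower, and 1 pathway gene was higher and 31 lower. SPRED3 then stood at -0.025 and SOS1 at 0.017. With the deposited scaling, SOS1 stood at -0.37 on its second brightest probe set. The members' median was 0.82 with the mean over probe sets and 0.81 with the second brightest. On the second brightest, DUSP1 left the 2-fold set (0.30) and DUSP10 entered it (1.17). The adaptors' median, with no value for SPRED2, was then 0.19 instead of -0.16. Members with 1 probe set (DUSP5, SPRY2 and SPRY4) kept that probe set in this alternative. The mean over probe sets and log2 of signal plus floor each left 5 pathway genes higher. With shared-sequence probe sets left out, DUSP1 and SPRY4 had no value, and 3 of the 8 members measured were higher. The named pathway genes DUSP12, MAP2K6, MAPK11, EGR1 and IER3 also had no value then. Of the members, SPRED2 had none with the second brightest. Over all alternatives, 96 values of single members kept their side of 2-fold, 7 fell below it and 4 passed it. Of those that passed, DUSP10 became 2-fold higher, and SPRY2, SPRED1 and SPRED2 2-fold lower under poly(A) control scaling. The 96 include changes of sign within 2-fold, for DUSP6, DUSP10, SPRY4 and SPRED1. They also include values that could not move. The members' brightest probe sets lay above every floor used, and DUSP5, SPRY2 and SPRY4 have only 1 probe set. Why the other values moved was not tested. No paired analysis was possible because each group has 1 array. With no replicate and no detection calls, weak signals near the floor have unknown error.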
